A study of Mus musculus with 4 samples.

Results

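SAMP8 mice that ate whale meat extract were never hybridised directly against SAMR1 mice, and this account gives that missing ratio for every measured brain transcript. It was built from all 4 arrays of the series. For each probe the mean log2 ratio of SAMP8 on the extract over SAMP8 on the control diet was added to the mean log2 ratio of SAMP8 on the control diet over SAMR1, so that the shared control-diet SAMP8 RNA cancels. A probe entered if, in each pair, some RNA gave it a signal well above background on both arrays, which held for 33421 of 41174 probes. These gave 26389 genes and unnamed transcripts, of 33269 on the array, and 14358 of them carry a usual gene name.

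Arrays 1 and 2 compared SAMP8 on the whale meat extract diet (WME) with SAMP8 on the low-safflower oil diet (LSO), with the Cy5 and Cy3 dyes exchanged. Arrays 3 and 4 compared SAMP8 LSO with SAMR1 LSO in the same way. SAMP8 (senescence-accelerated mouse prone 8) and SAMR1 (resistant 1) are labelled with an AKR/J background and a suspected outcross to an unknown line. All mice ate chow to 24 weeks of age and then LSO or WME for 26 weeks. They did behavioural tests for 8 days from 49 weeks and gave whole brain at 50 weeks. The extract came from the red meat of Antarctic minke whale. SAMR1 received LSO only, so in SAMP8 WME over SAMR1 LSO the strain and the diet cannot be told apart. Each group is 1 RNA, and the labels do not say how many mice it came from. No p-values are therefore given. The SD beside each ratio is over 2 sums that each hold both dye orientations (array 1 plus array 4, array 2 plus array 3, n = 2), and it measures technical error only.

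SAMP8 is studied because it loses learning and memory early in life, and SAMR1 serves as its usual control. Many genes that separated these strains below belong to the interferon response. Interferons bind receptors whose kinases, Tyk2 among them, activate factors such as Stat2 and Irf9, and these bind a GAAA-rich element in the promoters of antiviral genes. The brain keeps this programme low at rest. Whole brain also holds vessels, meninges, blood and resident immune cells, whose transcripts appear in the same RNA.

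The promoters below are shown because their genes were higher in SAMP8 than in SAMR1 with either diet and carry that element. The letters searched were GAAANNGAAA on both strands, in 250 bases before to 50 bases after each gene's start (RefSeq, build GRCm38.p6). The windows read 5′ to 3′ on the gene's strand, with the matches in capitals. A match on the opposite strand appears as runs of TTTC, and overlapping matches share bases.
Ifit1, chr19:34640760-34640838, plus strand: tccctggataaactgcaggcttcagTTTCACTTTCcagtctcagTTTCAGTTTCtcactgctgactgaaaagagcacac
Isg15, chr4:156200850-156200921, minus strand: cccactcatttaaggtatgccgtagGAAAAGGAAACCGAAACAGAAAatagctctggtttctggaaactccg
Gbp3, chr3:142559974-142560039, plus strand: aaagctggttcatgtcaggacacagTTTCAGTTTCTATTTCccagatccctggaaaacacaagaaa
Cxcl10, chr5:92349068-92349127, minus strand: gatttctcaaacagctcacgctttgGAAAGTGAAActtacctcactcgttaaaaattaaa
Trim30d, chr7:104507856-104507915, minus strand: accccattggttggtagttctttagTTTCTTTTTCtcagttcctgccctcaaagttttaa
Ccl19, chr4:42756539-42756598, minus strand: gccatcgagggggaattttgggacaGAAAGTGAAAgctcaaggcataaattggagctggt

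Over all genes with a promoter in the RefSeq table, 1079 of 27025 (3.99%) held a match. Of the 20 interferon-stimulated genes called higher with WME over SAMR1, 15 had a promoter in the table and 11 held a match. Of the 14 measured members that were not called, 11 had a promoter and 7 held a match, so matches were not limited to the called members. Among the 214 higher strain calls that remained, 93 had a promoter and 21 held a match. Among the 47 genes called in the WME over SAMR1 ratio alone, 21 had a promoter and 0 held a match. A match describes these letters only and is no evidence of binding.

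A gene was called in WME over SAMR1 when both dye-balanced sums were at least 1.5-fold in the same direction. That held for 371 of 26389 genes (1.41%), with 247 higher (0.936%) and 124 lower (0.47%) in SAMP8 WME. Tipin lay just inside, with sums of 0.59 and 0.60 log2, and AK014270 just outside, with 0.63 and 0.58. Feature Extraction's own processed signals called 453 and 260. The control-diet strain ratio, called when both of its arrays passed 1.5-fold, gave 261 higher (0.989%) and 120 lower (0.455%) genes. The spread of the ratios over genes was also close, with an SD of 0.20 log2 for WME over SAMR1, 0.20 for the strain part and 0.083 for the diet part. Of the WME over SAMR1 ratios, 67.5% lay within 0.1 log2 of 0, and the median of all genes was −0.0019. The diet pair alone called 23 genes (0.0872%), 15 higher (0.0568%) and 8 lower (0.0303%). Of the higher ones 4 were also called in WME over SAMR1, Pomc, Klk1 and Kap among them. The shares of all genes given here are the background for the list counts below.

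Most strain calls stayed called when SAMP8 ate the extract. Of 261 higher strain calls 214 (82%) remained, and of 120 lower calls 106 (88.3%) remained. Without array 3 or array 4 a strain call rests on 1 array, and not every sum for WME over SAMR1 is dye-balanced. In those settings 62.7% and 66.3% of all strain calls remained. Both ratios use arrays 3 and 4, so these counts describe how far the diet part moved each gene and are not independent evidence of the strain difference. The diet part of the remaining genes was small, with a median of −0.022 log2 for the higher and 0.0030 for the lower calls. It lay within 0.2 log2 of 0 for 201 and 103 of them. At least 2-fold differences with WME were seen in 104 of the remaining higher and 36 of the remaining lower calls.

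**Figure D1:**
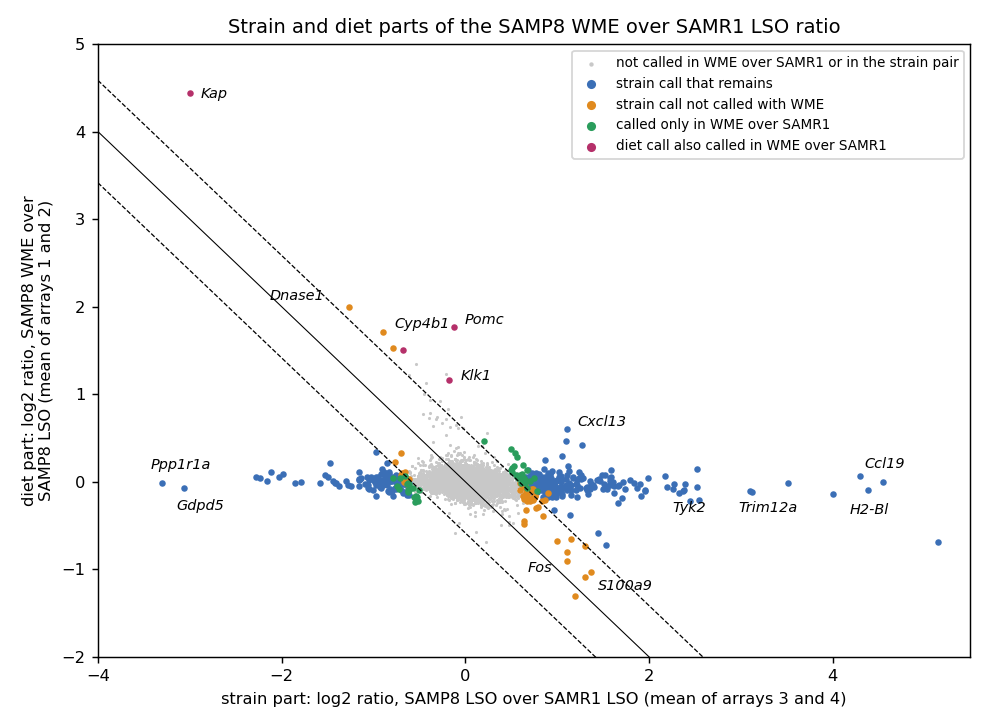
Each point is a gene, placed by its strain part (horizontal, log2 SAMP8 LSO over SAMR1 LSO) and its diet part (vertical, log2 SAMP8 WME over SAMP8 LSO); the solid diagonal marks SAMP8 WME equal to SAMR1 and the dashed diagonals 1.5-fold either way. The 320 remaining strain calls (blue) lie along the horizontal axis, while Fos and S100a9 lie below it near the solid diagonal and Kap crosses it.

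The highest named gene was Ccl19, a chemokine that draws T cells and dendritic cells to lymphoid tissue. Its arrays read 0.16 and −0.18 for diet and 4.83 and 4.26 for strain, so WME over SAMR1 was 4.54 ± 0.16 log2, or 23.2-fold. A second Ccl19 probe gave 4.24. The mouse genome holds near-identical copies of Ccl19, Ccl21 and Ccl27 genes side by side, so which copy a probe read is uncertain. Both neighbours were also higher, Ccl27a by 1.11 ± 0.03 and Ccl21a by 0.89 ± 0.06 log2.

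Next came H2-Bl, one of the class I histocompatibility genes, at 4.29 ± 0.26 log2. The diet arrays read 0.08 and −0.27 for it and the strain arrays 4.37 and 4.40. Further H2-Bl probes gave 1.19 and 3.03, and class I genes are similar enough in sequence that the probes may read several of them. It was the only one of 19 measured antigen presentation genes called with WME. On the control diet 4 were called, against 0.989% of all genes called higher. H2-Q7, H2-T23 and Psmb9 were not called once the diet part was added, but only crossed the threshold. They were at 0.54, 0.57 and 0.53 log2 with WME and at 0.73, 0.75 and 0.67 on the control diet. Of the 19, 13 were above 0 in both sums, against 30.8% of all genes.

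Tyk2, a kinase of the interferon receptors, was 2.27 ± 0.33 log2 higher. Its arrays read −0.33 and 0.13 for diet and 2.38 and 2.37 for strain, so the 2 sums, 2.04 and 2.51, differ through the diet pair. It was the only called gene among 17 measured interferon signalling genes, whose median was 0.065. Stat2 was at −0.0040 log2 and uncalled.

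The interferon-stimulated genes showed the broadest remaining strain difference. Of 34 measured members 20 were called higher and 0 lower, against 0.936% and 0.47% of all genes, and 32 were above 0 in both sums. Their median was 0.76 log2 with WME, 0.80 on the control diet and −0.095 for the diet part. On the control diet 22 were called, of which 20 remained.
Ifi27l2a, a small protein induced by interferon, led the list. It read −0.05 and −0.40 on the diet arrays and 2.6 and 2.29 on the strain arrays, giving 2.23 ± 0.03 log2, and its other probe gave 1.54. Tgtp1, a GTPase against intracellular pathogens, was at 1.80 ± 0.03, although its other probe gave 0.17. Usp18, which removes Isg15 from proteins and damps the receptor, was at 1.75 log2 in both sums. Ifit1, which binds foreign RNA, was at 1.63 ± 0.12, with strain arrays at 1.82 and 1.52 and diet arrays at 0.03 and −0.11.
These genes were high in both SAMP8 RNAs. The members below them in size included Isg15 at 1.19, the RNA sensor Oas1a at 1.28 and Eif2ak2 (the kinase PKR) at 0.94 log2. For Oas2, a further RNA sensor, and Ifi44 both arrays left SAMR1 not well above background, and they were at least 2.09-fold and at least 2.32-fold higher. The diet part was below 0 on both arrays for 21 of the 34 and above 0 on both for 0, with no such count over all genes. It was small, between −0.22 and 0.12 log2, and WME over SAMR1 was smaller than the strain part in 31 of 34. The SAMP8 LSO RNA is the numerator of the strain part and the denominator of the diet part. A level peculiar to it moves them in opposite directions, and 1 RNA per group cannot separate that from an effect of the diet. Irf7 and Iigp1 were the strain calls that were not called with WME, at 0.61 ± 0.15 and 0.60 ± 0.03 log2. One sum each was below 1.5-fold for these genes, 0.51 for Irf7 and 0.57 for Iigp1.

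**Figure D2:**
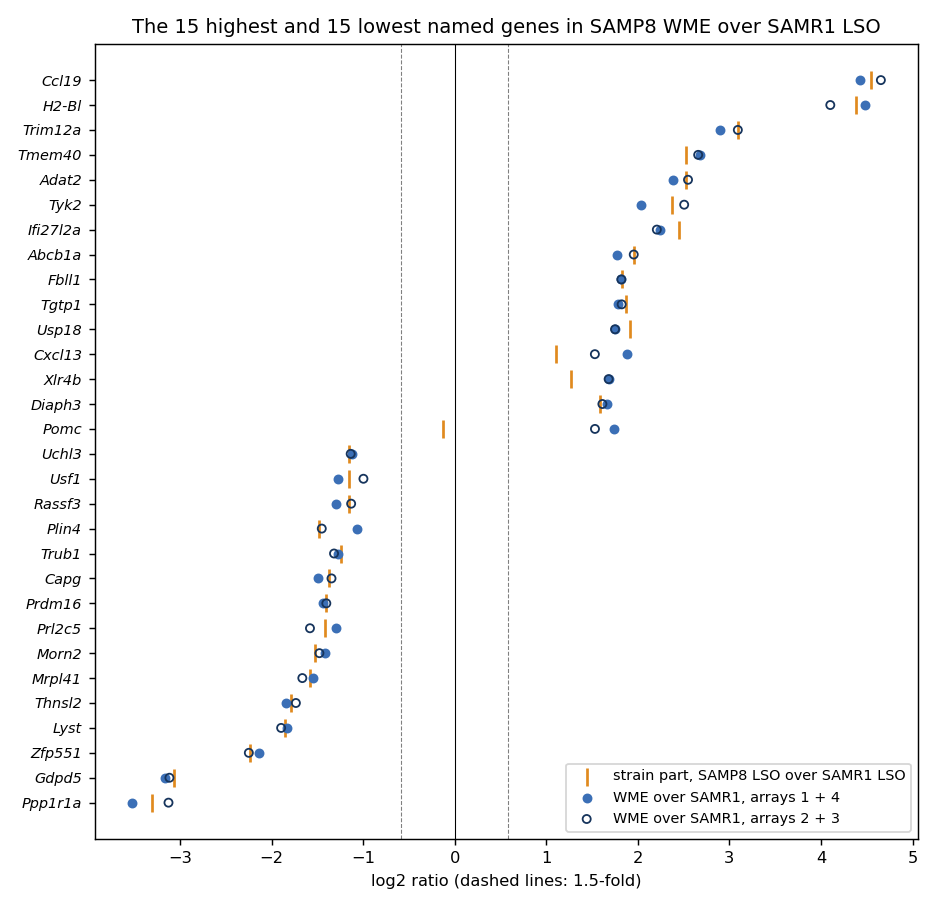
The 15 highest and 15 lowest named genes in SAMP8 WME over SAMR1 LSO, with the log2 ratio on the horizontal axis; circles are the 2 dye-balanced sums and orange ticks the strain part on the control diet. For most genes the circles lie on or beside the tick, as for Ppp1r1a at −3.32, while Pomc has its tick at −0.13 and its circles at 1.53 and 1.74.

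Genes that restrict retroviruses formed another remaining group. Of 12 measured, 4 were called higher with WME and the same 4 on the control diet, against 0.936% and 0.989% of all genes. Trim12a, a relative of the capsid-binding factor Trim5, was at 2.99 ± 0.14 log2, with strain arrays at 3.19 and 3.01 and a second probe at 1.03. Trim30d was at 1.18 ± 0.07 and Trim30a at 0.91 ± 0.10. Bst2, which tethers budding virus to the cell, was at 0.77 ± 0.13. This list and the interferon-stimulated list share members, so their counts overlap.

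Chemokines were split. Of 18 measured, 6 were called higher and 1 lower, against 0.936% and 0.47% of all genes. Cxcl13, which attracts B cells, was the one with a sizeable diet part. On the diet arrays it read 0.87 and 0.33, on the strain arrays 1.2 and 1.01, and WME over SAMR1 was 1.70 ± 0.24 log2. Cxcl10, which attracts T cells after interferon, was at 1.42 ± 0.10. Ccl17 was the lower gene, at −0.75. In the complement list 2 of 16 were called, both lower. C4b, a component of the classical pathway, was at −0.95 ± 0.05 and C2, which acts with it, at −0.90 ± 0.11, although 11 of the 16 were above 0 in both sums.

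Other high genes that remained came from unrelated roles. Adat2, a tRNA-editing deaminase, was at 2.46 ± 0.12 log2 and Tmem40, a membrane protein, at 2.67 ± 0.02, although a second Tmem40 probe gave 1.09. Abcb1a, the drug efflux pump of brain vessels, was at 1.86 ± 0.13. Fbll1, a relative of the nucleolar methyltransferase fibrillarin, read 1.91 and 1.76 on the strain arrays and was 1.82 log2 higher in both sums. Diaph3, an actin nucleator, was at 1.64 ± 0.04. Xlr4b, an X-linked imprinted gene, was at 1.68 in both sums, with a diet part of 0.41 on top of a strain part of 1.27, but its other probes gave 0.98 and 0.34.

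The lowest gene was Ppp1r1a, the inhibitor of protein phosphatase 1 known as inhibitor-1. Its diet arrays read −0.10 and 0.06 and its strain arrays −3.19 and −3.42, so it was −3.32 ± 0.28 log2 in SAMP8 WME. A second probe gave −2.41. It was the only one of 18 phosphatase 1 regulators called. Gdpd5, a phosphodiesterase that acts on glycerophosphocholine, was at −3.14 ± 0.03 and 8.81-fold lower.
Both genes were low in both SAMP8 RNAs and high in the SAMR1 RNA. Zfp551, a zinc finger gene, was at −2.19 ± 0.08 log2. Lyst, a regulator of lysosome size, was at −1.86 ± 0.04 and was the only one of 25 lysosome and autophagy genes called. Mrpl41, a protein of the mitochondrial ribosome, was at −1.60 ± 0.08, Prdm16, a transcription factor of brown fat and neural stem cells, at −1.42 ± 0.03, and Capg, an actin-capping protein, at −1.42 ± 0.10.
Plin4, a lipid droplet coat gene, was at −1.26 ± 0.27, with a diet part of 0.22 against a strain part of −1.48. Trub1, a pseudouridine synthase, was at −1.30 ± 0.03 by its brightest probe but at −0.12 by another. Uchl3, a ubiquitin hydrolase, was at −1.13 ± 0.01, Rassf3 at −1.21 ± 0.11 and the transcription factor Usf1 at −1.14 ± 0.20. The largest diet part among the 15 lowest genes was that of Plin4.

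A further 13 lower strain calls could not enter because their probes were dim in both SAMP8 RNAs, which left the diet pair unmeasured. No WME over SAMR1 ratio is given for them. The only usual gene name among them is Lefty1, an inhibitor of Nodal signalling. Its measured signals gave −2.62 and −2.71 log2 on the strain arrays, where the SAMP8 side was not well above background. Higher strain calls lost in this way numbered 0. Among the higher calls with WME, 9 had a SAMR1 signal not well above background on either array, and those with a usual gene name are Ifi44 and Oas2. The folds of these 9 are lower bounds.

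Of the strain calls, 47 higher and 14 lower ones were not called with WME. Without array 3 these numbered 105 and 99, without array 4 they numbered 142 and 43, and without array 2 they numbered 47 and 23. With 1 strain array left, strain calls themselves rose from 381 to 547 without array 3 and to 549 without array 4. Of the 47 and 14, many only crossed the threshold. A mean ratio past 1.5-fold in the strain direction was kept by 17 and 6, and only 5 and 0 came within 1.2-fold of SAMR1. The diet part opposed the strain part on both arrays in 35 and 10, by at least 0.3 log2 in 13 and 6. The genes below had the largest opposing diet parts.

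Fos, a transcription factor induced within minutes of neuronal firing, is the clearest. Its diet arrays read −0.77 and −1.04 and its strain arrays 1.23 and 0.99, which leaves WME over SAMR1 at 0.20 ± 0.02 log2. The SAMP8 LSO RNA thus stood above both others for Fos, and those others were close. Egr2 (diet −0.63 and −0.68, strain 1.19 and 1.11) came to 0.50 ± 0.01 log2. Nr4a1 (−0.56 and −0.79, 1.08 and 0.92) came to 0.33 ± 0.05.
Arc, which acts in synaptic receptor traffic, came to 0.33 ± 0.03, and Egr4 to 0.18 ± 0.03. Of 23 measured immediate early genes, 5 were called higher on the control diet (against 0.989% of all genes) and 0 with WME, which is the count of calls only. Their median was 0.15 log2 with WME and 0.30 on the control diet, and 18 of 23 were still above 0 in both sums. Npas4, another activity gene, lay below SAMR1 at −0.47 ± 0.14.
With 1 RNA per group, a level peculiar to the SAMP8 LSO RNA and an effect of the diet cannot be told apart for these genes, and when each mouse was killed after the behavioural tests is not stated in the labels.

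Neutrophil granule genes showed the same arithmetic. S100a9 read −1.13 and −1.05 for diet and 1.26 and 1.35 for strain, and came to 0.22 ± 0.01 log2. Its partner S100a8 came to 0.31 ± 0.14. Of 11 measured granule genes, 2 were called higher on the control diet (against 0.989% of all genes) and 0 with WME. The median was 0.42 log2 before and 0.11 after the diet part. Mmp9 and Cd177 stayed near 0 in every ratio. In whole-tissue RNA, fewer cells of a type and less RNA per cell cannot be told apart.

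Collagens and meningeal fibroblast genes had smaller ratios with WME. Of 21 measured, 5 were called higher on the control diet (against 0.989% of all genes) and 1, Col3a1, with WME at 0.64 ± 0.06 log2. The other Col3a1 probe gave 0.052. Col1a2, a chain of type I collagen, went from 0.70 to 0.48 and Ogn, a small matrix proteoglycan, from 0.64 to 0.48. Still, 20 of 21 were above 0 in both sums, and the median was 0.22 log2 with WME and 0.28 without.
The 3 mural cell genes called on the control diet kept their calls. Kcnj8 (0.93 ± 0.07), Rgs5 (0.74 ± 0.10) and Pdgfrb (0.73 ± 0.13), which pericytes express, were called in both ratios, and the median of 13 genes was 0.25 log2. The other members were uncalled, from Abcc9 at −0.12 and Cspg4 at 0.044 to Anpep at 0.48. Of the 13, 12 were above 0 in both sums, against 30.8% of all genes. Of 18 endothelial genes only Abcb1a was called, and their median was 0.16.

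Cyp2g1 is a cytochrome of the nasal lining and is not a usual brain transcript. It read −1.29 and −0.77 for diet and 1.38 and 1.35 for strain, and its sums were 0.06 and 0.62 log2. Cyp2a5 and Cyp2a4, near-identical genes of the same tissue, remained called at 0.81 ± 0.14 and 0.85 ± 0.04 despite diet parts of −0.72 and −0.59. Further Cyp2a4 probes gave 0.90 and 0.39. Of the 11 measured nasal mucosa genes, 9 were above 0 in both sums, against 30.8% of all genes.

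**Figure D3:**
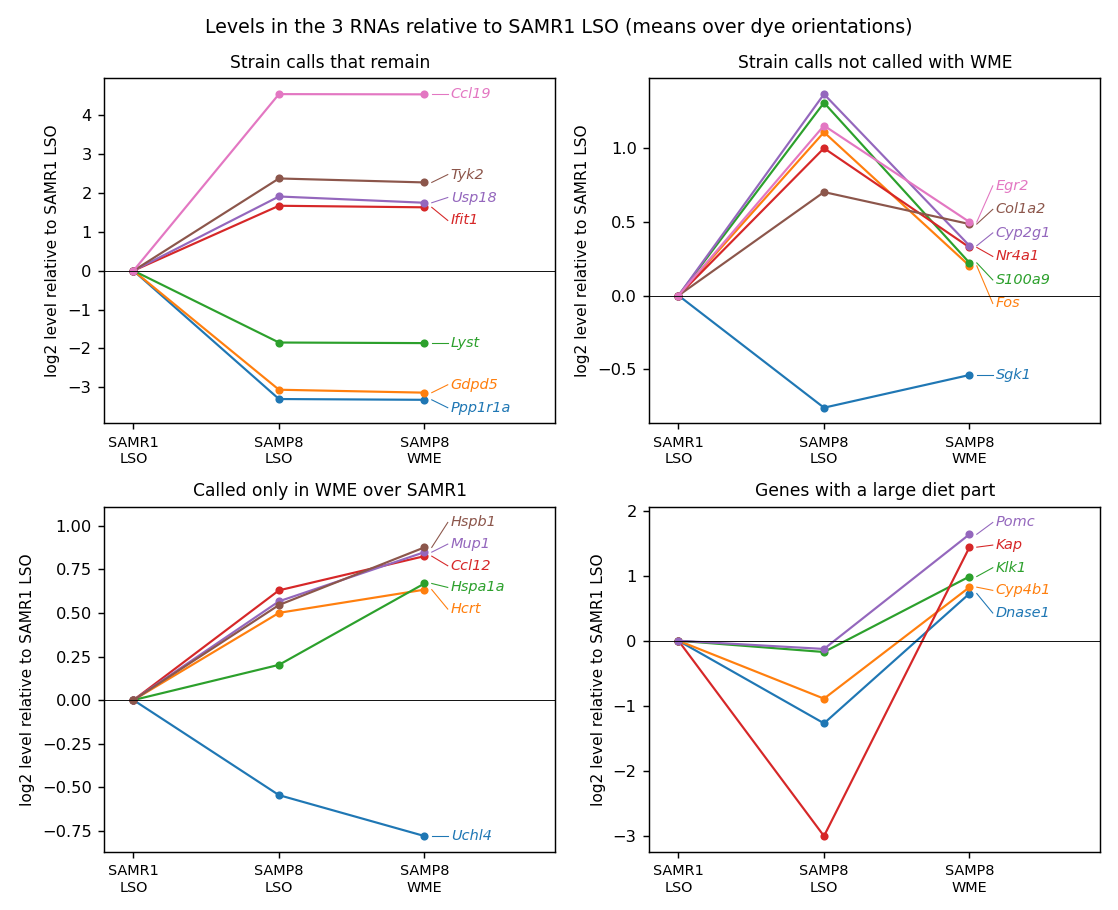
Log2 level of 25 genes in the SAMR1 LSO, SAMP8 LSO and SAMP8 WME RNAs, with SAMR1 set to 0; the 4 panels have their own vertical scales and each point is a mean over dye orientations. Strain calls that remain run flat from SAMP8 LSO to SAMP8 WME, Fos falls from 1.11 to 0.20, Hspb1 climbs from 0.55 to 0.88, and Kap goes from −3.0 to 1.44.

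The genes called with WME and in neither measured pair numbered 29 higher and 18 lower, and 23 and 6 of them carry a usual gene name. These counts moved with single arrays, although with an array left out not every sum was dye-balanced. Without array 3 they were 9 and 8, without array 4 they were 9 and 6, and without array 2 they were 44 and 19. They sit near the threshold, between 0.59 and 0.88 log2 and between −0.60 and −0.81. The mean strain part was already past 1.5-fold in 17 and 11 of them. The call rule for the pairs needs each array past 1.5-fold and so keeps a probe's dye bias, which the dye-balanced sums cancel. Part of this group therefore reflects the different rule, as for Clec10a, whose strain arrays read 1.01 and 0.56. With Feature Extraction processed signals 18 of the 47 stayed in the group. The diet part ran in the same direction on both arrays in 14 and 10, and was at least 0.2 log2 in 4 and 2.

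Hspb1, a small heat shock protein that guards actin and prevents aggregation, was the largest named one. Its arrays read 0.31 and 0.35 for diet and 0.54 and 0.55 for strain, each under 1.5-fold, and together 0.88 ± 0.03 log2. Hspa1a, the inducible Hsp70, read 0.64 and 0.30 for diet and 0.34 and 0.06 for strain, and came to 0.67 ± 0.04. Its other probe gave 0.63. Hspa1b, a near-identical neighbour that probes can hardly separate from it, was at 0.59 log2 with 1 sum, 0.54, below the threshold.
Hspa1a is the only gene of this group whose diet part exceeded its strain part, 0.47 against 0.20. The heat shock and chaperone list went the same way in small steps. Of 23 measured members, 2 were called higher and 0 lower, but 22 were above 0 in both sums, against 30.8% of all genes. Their median was 0.30 log2 with WME, 0.18 for the strain part and 0.09 for the diet part, and WME over SAMR1 exceeded the strain part in all but 1 (Hsp90aa1, the inducible cytosolic Hsp90, at 0.06).
Chaperones of the endoplasmic reticulum were among them, with Sdf2l1 at 0.59, Pdia6 at 0.46 and Hspa5 (BiP) at 0.43 log2. The heat shock element GAANNTTCNNGAA was found in the promoters of 3 of 17 list members with a promoter (Hspd1, Hspe1 and Hsph1), against 0.662% of genes. Those 3 genes were at 0.11, 0.15 and 0.34 log2. Hspe1 and Hspd1 share a head-to-head promoter.

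Other genes of this group were Mup1, a major urinary protein with many near-identical copies, at 0.85 ± 0.01 log2, and Ccl12, a monocyte chemokine, at 0.83 ± 0.01. Their diet arrays were all above 0, at 0.27 and 0.30 for Mup1 and 0.28 and 0.12 for Ccl12. Inhbc, an activin subunit, was at 0.81 ± 0.03, with SAMR1 well above background on 1 of 2 arrays. Dct, a melanin enzyme, was at 0.80 ± 0.22 and its other probe gave 0.45. Cdkn2d, a brake on the cell cycle, was at 0.71 ± 0.01, but its diet arrays were −0.10 and 0.12 and its strain part alone was 0.70.
Hcrt, the hypothalamic peptide orexin, was at 0.63 ± 0.05. Prl, the pituitary hormone prolactin, was at 0.71 ± 0.11, with strain arrays of 0.72 and 0.35. From the WME and SAMR1 channel levels it came to 0.46, below 1.5-fold, and its SAMP8 LSO level differed by −0.25 between pairs. Zfp9 (0.70 ± 0.08) and Myo1f, a myosin of leukocytes (0.67 ± 0.05), owed nearly all of their ratio to the strain part, 0.61 and 0.60. Another Zfp9 probe gave 0.44.
Among the lower genes, Uchl4, a ubiquitin hydrolase, was at −0.78 in both sums with diet arrays of −0.15 and −0.32, and its other probe gave −1.05. In that other probe the strain part alone was −1.14 and the diet part 0.087. Il22, a cytokine that acts on epithelia, was at −0.70 in both sums and −0.56 by its other probe. Ei24 was at −0.75 ± 0.07 and Dusp12, a phosphatase, at −0.67 ± 0.02. Agpat5, a lipid acyltransferase, was at −0.64 ± 0.03 by its brightest probe and −2.27 by another. That other probe had a strain part of −2.34 and a diet part of 0.073. By their other probes, Uchl4 and Agpat5 were thus past 1.5-fold in the mean strain part already. Smarca2, a chromatin remodeller, was at −0.60 by its brightest probe but at 0.16 and −0.014 by others, so its call rests on 1 probe.

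A last set turned direction, or lay above SAMR1, once the diet part was added. Pomc, the precursor of melanocortins and endorphin made in the hypothalamus and pituitary, had no strain difference (−0.12 and −0.13) and read 1.87 and 1.66 for diet. With WME it was 1.64 ± 0.15 log2, or 3.11-fold, above SAMR1. Of 9 measured pituitary genes, Pomc and Prl were called, Prl with the limits given above. Gh, growth hormone, was at 0.25 and the others were between −0.24 and 0.21 log2. Whether the share of pituitary in the brain RNAs moved with Pomc was not tested beyond this list.

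Kap, an androgen-regulated protein of the kidney, had the widest swing. Its diet arrays read 5.09 and 3.79 and its strain arrays −2.95 and −3.05. It was a lower strain call and a higher call with WME, at 1.44 ± 0.85 log2, and its 2 sums, 2.04 and 0.83, disagreed by more than 2-fold. Klk1, a renal kallikrein, was at 0.99 ± 0.55.
Kidney transcripts went together. Of 29 measured, 22 were above 0 in both sums and 2 were called higher (Kap and Klk1), against 30.8% and 0.936% of all genes. The median was 0.29 log2 with WME against −0.16 on the control diet. The diet part was above 0 on both arrays in 22, with no such count over all genes. The sum of arrays 1 and 4 had a median of 0.43 and put 12 genes past 1.5-fold, while arrays 2 and 3 had a median of 0.12 and put 2 there.
Dnase1 shows the disagreement. Its diet arrays read 2.56 and 1.43 and its strain arrays −1.27 and −1.27, so its sums were 1.29 and 0.16 log2 and it was not called. Cyp4b1 (1.14 and 0.51) and Acsm2 (1.19 and 0.28) did likewise. The gap lies between arrays 1 and 2, where the kidney list differed by a median of 0.21 log2, and not between arrays 3 and 4, where it differed by −0.0070. For these genes the order of the RNAs was SAMP8 LSO lowest, with SAMR1 and SAMP8 WME above it. The part of kidney RNA in the brain samples in these values was not tested.

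**Figure D4:**
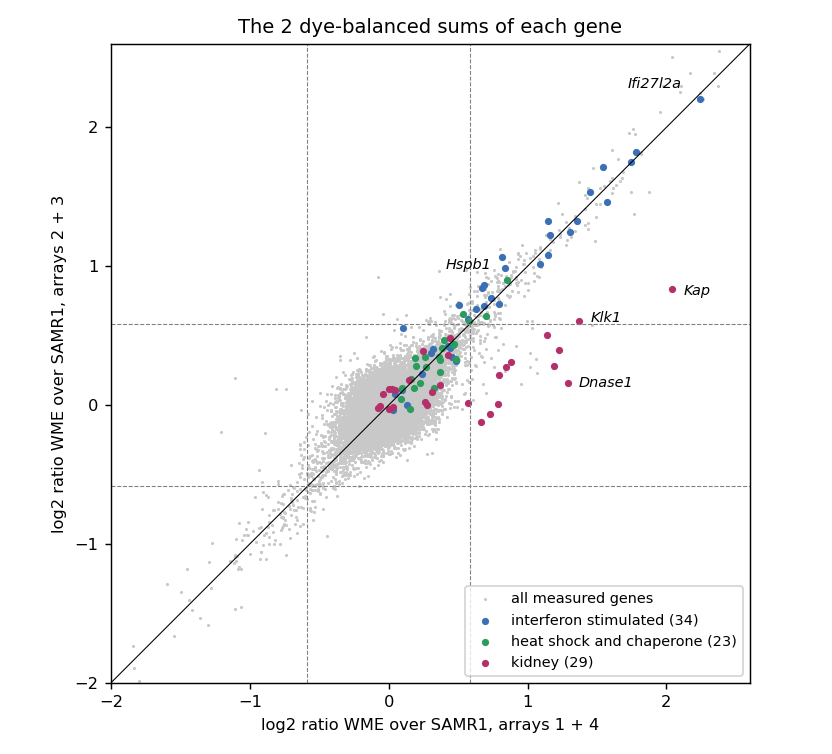
The 2 dye-balanced sums of SAMP8 WME over SAMR1 LSO for each gene (log2; arrays 1 + 4 horizontal, arrays 2 + 3 vertical; 16 genes lie outside the axes); dashed lines mark 1.5-fold and the solid line equality. Interferon-stimulated and heat shock genes follow the line, while kidney genes such as Dnase1 (1.29 and 0.16) lie to its right.

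All 17 markers of neurons, astrocytes, oligodendrocytes, microglia and endothelium that were checked were well above background in every channel. So were 81.4% to 85.6% of probe spots per array and channel, and also Kap and Cyp2g1. The markers therefore cannot test the tissue label. Neuronal markers lay between −0.097 and 0.0020 log2 in WME over SAMR1, with Gad1 lowest and Slc17a7 highest. Gfap, the astrocyte filament, was at 0.44 ± 0.25 and uncalled. The microglia and macrophage list had 3 of 20 called higher, against 0.936% of all genes, and all 3 were strain calls too. These were Itgax at 1.14 ± 0.03, Cst7 at 1.11 ± 0.03 and Lyz2 at 0.83 ± 0.06 (0.51 by its other probe). The resting markers P2ry12, Tmem119 and Cx3cr1 were at 0.0020, 0.027 and 0.16 log2. All members but those 3 were uncalled, from Trem2 at −0.039 to Mrc1 at 0.505, with Cd14 at 0.18, Tyrobp at 0.24 and Lgals3 at 0.26. The list median was 0.195, and a state of activation was not tested.
Spink8, a hippocampal pyramidal cell gene, remained at 1.22 ± 0.02. It was the only 1 of 11 measured hippocampal genes called, against 0.936% of all genes called higher, and the list median was −0.007. Slc5a7, the choline transporter of cholinergic endings, remained at 1.06 ± 0.03. Of 15 cholinergic genes 2 were called, Slc5a7 and Chrna4. The median of that list was 0.025, with 3 genes above and 3 below 0 in both sums. The receptor subunit Chrna4 was at 0.82 ± 0.11 by its brightest probe but at −1.66 by another, so its direction is not settled. Apoa2 and Apoc1, both apolipoproteins, remained at 1.12 ± 0.03 and 0.71 ± 0.12.

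Groups often looked for in SAMP8 were near 0. Of 20 measured amyloid and tau genes 0 were called (median 0.022 log2), and the same was true of 25 antioxidant genes (0.022), 14 pan-neuronal genes (0.012), 16 fatty acid oxidation genes (0.012) and 20 cholesterol genes (0.024). At an n of 1 RNA per group this does not show that they were equal. Of all genes, 32.2% were below 0 in both sums, which is the background for the 4 lists that follow. Of 17 respiratory chain genes 0 were above and 9 below 0 in both sums, at a median of −0.048 that turned to 0.067 under median centring.
Cerebellar genes, led by Cbln1 at −0.26 ± 0.04, were below 0 in both sums in 11 of 15, with diet arrays below 0 in 12, and their median of −0.076 turned to 0.021 under the same centring. Choroid plexus genes were below 0 in both sums in 9 of 12, led by the water channel Aqp1 at −0.38 ± 0.04, at a median of −0.11. Of 15 glucocorticoid-responsive genes 10 were below 0 in both sums. The kinase Sgk1 read 0.21 and 0.23 for diet and −0.80 and −0.73 for strain, and at −0.54 ± 0.04 it was no longer called, while Plin4 remained.

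**Figure D5:**
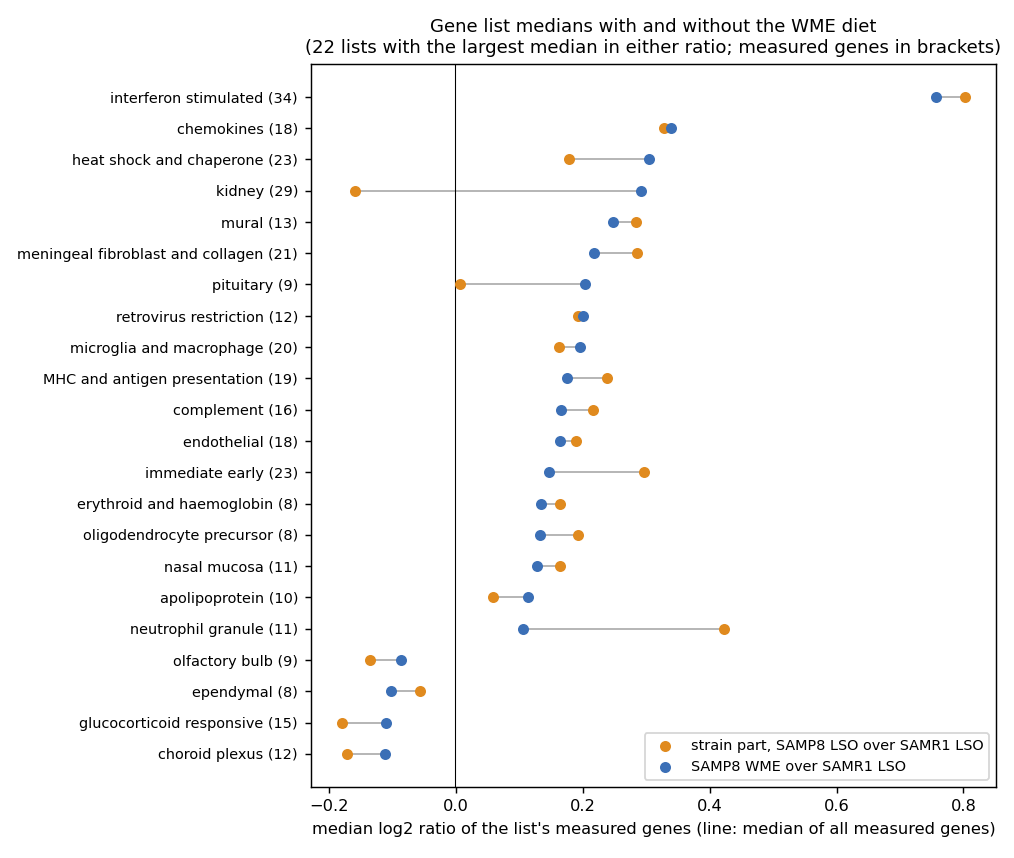
Median log2 ratio of the measured genes of 22 lists in the strain part (orange) and in SAMP8 WME over SAMR1 LSO (blue), with the number of measured genes in brackets and the vertical line at the median of all genes. The interferon-stimulated median is far to the right in both (0.80 and 0.76), the neutrophil and immediate early medians are closer to 0 with WME, and the heat shock and kidney medians are higher with WME.

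The indirect ratio assumes that both pairs carried the same SAMP8 LSO RNA. Its level in the diet pair and in the strain pair, read channel by channel, differed with an SD over genes of 0.16 log2 in Cy3 and 0.089 in Cy5, and 3 genes were past 1.5-fold in both dyes. WME and SAMR1 were also compared by their own channels, where that RNA entered only through the normalization, and 329 of the 371 calls were made again. The spots are the same, so this is no independent repeat of the calls. Fos gave 0.20 that way, Hspb1 0.89 and S100a9 0.20 log2. Kap moved most among the genes above, to 1.93, with a SAMP8 LSO level that differed by 0.49 between pairs. Across genes both dye-balanced sums correlated at 0.781, a value that genes share through the arrays, and 0 genes were past 1.5-fold in opposite directions in them.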

How the data were processed

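Total RNA of whole brain was hybridised to 4 Agilent two-colour arrays on 1 slide, so no slide batch could be compared. Per the submitters' processing notes, Agilent Feature Extraction 11.0.1.1 made the deposited scanner files. Their spot intensities come as raw medians with local backgrounds and as processed values after background subtraction and dye normalization, per the file headers. The deposited log10 ratios of red over green, made from the processed values per the file headers, were not used. The deposited series table holds log2 ratios equal to those processed signals' log2 red over green (largest difference 5e-09), not turned for the dye swap; its column medians were −0.018, 0.012, 0.0036 and 0.017. Between 81.4% and 85.6% of 43379 probe spots were well above background per array and channel, and 0 were saturated. With 1 RNA per group, the number of arrays limits precision.

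Median signals were corrected with normexp (offset 50) and loess within arrays (limma 3.58.1 in R 4.3.3). Control spots had weight 0, and 105 to 123 outlier spots per array were left out. The offset shrinks ratios of dim probes. Swapped arrays were turned, and a gene took its brightest probe. Probes were named through RefSeq accessions of the GRCm38.p6 gene table (23374 of 41174, plus 10 by symbol), used for names and gene order only, since the array files name another build. Of 85 other probes of called named genes, 67 had the same sign and 30 were called. The steps were tested on simulated data.

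The genes described and the 50 gene lists were chosen with earlier results of these data known. Named genes were the 15 highest and 15 lowest, the 10 largest per direction that remained, were no longer called or were called with WME over SAMR1 alone, all diet calls also called, and up to 4 called members of each list (otherwise up to 2); other genes and probes named were chosen after their values were seen. Some genes of these groups are not reported here. Alternatives covered background correction, offset, normalization, the filter, the probe rule, the call rule, the threshold, single-channel levels, the deposited table and each array left out.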

Additional observations from a re-analysis of the deposited data

How the results depend on the processing

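With 1 RNA per group no setting tests biological variation. In the order called higher and lower, remaining higher and lower, no longer called higher and lower, and called in WME over SAMR1 alone higher and lower, the values given were 247, 124, 214, 106, 47, 14, 29 and 18. Feature Extraction processed signals gave 453, 260, 356, 187, 100, 62, 60 and 66, and the deposited log2 ratios 453, 260, 356, 187, 101, 62, 60 and 66. They hold 243 of the 247 higher and 122 of the 124 lower calls, but only 18 of the 47 called in WME over SAMR1 alone, and 15 genes turned direction, Kap, Dnase1 and Cyp2e1 among them. A 2-fold threshold gave 95, 32, 85, 27, 16, 3, 9 and 5. Requiring 1.5-fold in all 4 sums gave 71 and 25 no longer called and 8 and 6 in WME over SAMR1 alone. An offset of 10 gave 73 higher strain calls no longer called. Median centring gave 33 lower ones and 56 higher genes in WME over SAMR1 alone, with a median of all genes of 0.045. Single-channel levels gave 26 lower strain calls no longer called. A rule on mean ratios, chosen after seeing the data, gave 11 lower genes in WME over SAMR1 alone. The causes were not tested. When an array was left out, 1 of the 2 sums behind a WME over SAMR1 call did not hold both dye orientations. Leaving out each array in turn gave 233 to 283 and 119 to 133 calls, 211 to 245 and 97 to 125 remaining, 47 to 142 and 12 to 99 no longer called, and 9 to 44 and 6 to 22 in WME over SAMR1 alone. In the last 4 of these, array 1 left out gave 50, 12, 27 and 22, array 2 gave 47, 23, 44 and 19, array 3 gave 105, 99, 9 and 8, and array 4 gave 142, 43, 9 and 6. With array 3 or 4 left out a strain call rests on 1 array, and strain calls numbered 547 and 549 in place of 381. Chrna4 turned to −0.423 as the median over its probes. Of 700 list medians recomputed, 26 moved and changed sign, none of them for the interferon-stimulated, heat shock, kidney, immediate early, neutrophil or meningeal lists. No paired analysis was possible because each comparison holds 1 replicate, the arrays of a pair being a dye swap of the same RNAs.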

Other observations

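Some called genes lay next to each other. Of 14598 measured genes with a place in the GRCm38.p6 gene order, 208 (1.42%) were called in WME over SAMR1, and 57 of these (27.4%) had a called gene as a direct neighbour. The share of all placed genes with a called neighbour is not given, so 27.4% has no matching background. Runs of at least 3 called neighbours numbered 8 and held 27 genes. Near-identical copies share probes' targets, so neighbours of 1 family are not independent values. The Trim34a, Trim12a, Trim30a and Trim30d run lay between 0.91 and 2.99 log2, and the transporter genes Abcb1a, Abcb1b and Abcb4 between 0.71 and 1.86.

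Other runs joined genes of unlike function. Tmem40 (2.67), Cand2 (1.27) and the DNA glycosylase Mbd4 (0.92) were all higher. Ero1b (1.30), Gpr137b (0.63) and Nid1 (0.60) were higher while Prl2c5 (−1.44) and Lyst (−1.86), beside them, were lower. Dpp7 was higher (0.85) next to the lower Uap1l1 (−0.98) and Entpd2 (−0.80). The diet part of every gene in these 8 runs lay between −0.14 and 0.18 log2.

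Among transcripts without a usual gene name, AK090125 was 4.46 ± 0.30 log2 higher in SAMP8 WME than in SAMR1, with strain arrays at 5.21 and 5.08 and diet arrays at −0.84 and −0.53. AK135623 was at 4.37 ± 0.14. AK035950 had a SAMR1 signal not well above background and was at least 7.29-fold higher.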
